A study of Homo sapiens with 14 samples.

Results

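SOCS1, SOCS3, CISH, PTPN1, PTPN2 and PTPN6 encode brakes on JAK-STAT signaling, and this is an account of where the NF-κB subunits p50, p52, RelB and RelA bound near them in L1236 cells, an established Hodgkin lymphoma (HL) cell line. A ChIP-seq region belongs to these genes if the closest gene or the closest transcription start site (TSS) recorded for it is one of their identifiers. In all, 26 of 14865 regions met this rule, 10 by both assignments, 14 by the TSS alone and 2 by the gene alone. SOCS1 (ENSG00000185338) had 15 regions, CISH (ENSG00000114737) and PTPN1 (ENSG00000196396) had 3 each, SOCS3 (ENSG00000184557) and PTPN6 (ENSG00000111679) had 2 each, and PTPN2 (ENSG00000175354) had 1. The rule uses position, not binding strength.

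The L1236 cells were untreated and grown in RPMI with heat-inactivated serum, and 14 libraries were made from them: 2 replicates for each of the 4 subunits and 6 of input DNA. The antibodies were goat polyclonal C-19 for p50, rabbit polyclonal C-19 for RelB and rabbit polyclonal C-20, labelled p65, for RelA. The p52 replicates used different antibodies, a mouse monoclonal and a rabbit polyclonal. No marker of the cell line could be checked, since the table holds binding and no expression. Reads of both replicates were merged before the final calls, so a fold enrichment or a read count below is 1 value per subunit, without a replicate error and without a test between conditions. Over all regions the merged reads of p50 summed to 1654137 and those of p52 to 1810792, while RelB had 470788 and RelA 315151. In the study's quality control both RelB libraries were smaller than the common size it sampled to. The RelA libraries had the lowest normalized strand cross-correlation of the 4 subunits, a score of ChIP enrichment. Calls and reads of RelB and RelA are therefore not on a par with those of p50 and p52.

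JAK kinases are switched on by cytokine receptors and phosphorylate STAT proteins, which then enter the nucleus and bind DNA. SOCS proteins are induced by STATs and act as feedback inhibitors: SOCS1 and SOCS3 block the catalytic activity of JAKs, and CISH, the founding member of the family, competes for docking sites on receptors. The tyrosine phosphatases encoded by PTPN1 (PTP1B), PTPN2 (TC-PTP) and PTPN6 (SHP-1) remove phosphate from JAKs and STATs. SOCS1 and PTPN1 are among the genes known to be mutated in HL. p50 and RelA form the prototypic canonical NF-κB dimer, and p52 and RelB the prototypic non-canonical one.

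Every region in the table was bound by at least 1 subunit, so a call at each of the 6 genes follows from the selection. p50 and p52 accounted for most of the calls, as they did over the whole table. p52 was called in 24 of the 26 regions, where 73.3% of all regions in the table carried a p52 call, and p50 was called in 20, against 73.8%. Both were called together in 18, against 51.4% of all regions. RelB was called in 7, next to a background of 26.8%, and RelA in 1, next to 3.31%. The RelB and RelA counts were thus close to what the whole table held. By pattern, 12 regions carried p50 and p52 without RelB or RelA, where 31.8% of all regions did. A further 5 carried p50, p52 and RelB (17.1% of all regions), 5 carried p52 alone (19.8%), 2 carried p50 alone (21.2%), 1 carried p52 and RelB (1.93%) and 1 carried all 4 subunits (2.35%). A member's TSS was overlapped by 5 regions (19.2%), those of SOCS1, SOCS3, CISH, PTPN1 and PTPN2. This was close to the 16.5% of all regions that overlap their closest TSS. The closest TSS was within 10 kb for 8 regions (37.3% of all regions) and further away for 18 (62.3%).

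**Figure D1:**
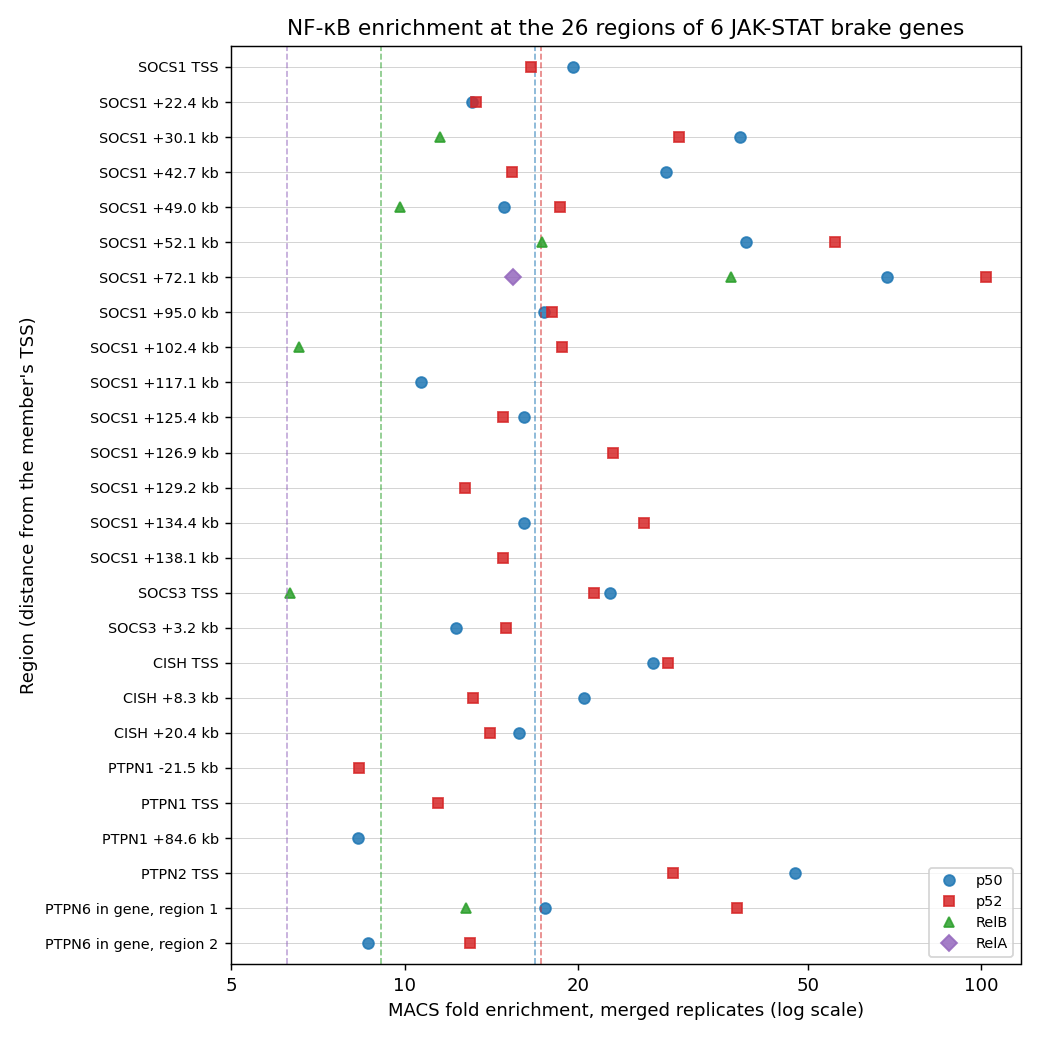
MACS fold enrichment (log axis) of each called subunit at the 26 regions, labelled by distance in kb from the member's TSS, except those of PTPN6, which are labelled as in the gene. Each symbol is 1 merged value and the dashed lines are the medians over all regions called for the subunit in the same color. The SOCS1 region 72.1 kb from the TSS holds the highest value for every subunit, and the 3 PTPN1 regions lie left of the p50 and p52 medians.

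Fold enrichment, the height of the most significant MACS peak in a region relative to its local background, had a median of 17.5 over the 20 regions called for p50 and 17.3 over the 24 called for p52. Over all regions called for these subunits the medians were 16.8 and 17.2. For RelB the median was 11.5 over 7 regions, and 9.08 over all 3984 called. By fold enrichment the 26 regions, 15 of them of SOCS1, therefore sat at the middle of the p50 and p52 distributions, with 11 of 20 and 12 of 24 above the medians. For p52 this depended on SOCS1 and on the measure. The median p52 percentile was 50.1 by fold enrichment, 37.8 without the SOCS1 regions and 35.4 to 48.9 by the other measures of strength. For p50 it was 52.8, 52.9 without SOCS1 and 50.1 to 60.8 by the other measures. The spread among the genes was wide, from 8.31 for p50 at PTPN1 to 101.8 for p52 at SOCS1.

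SOCS1 stood out by number: 15 regions were assigned to it, while the median gene in the table had 1 and 27 of 8450 genes (0.320%) had as many or more. All 15 lay on chromosome 16 (hg18), at the TSS or downstream of it in the direction of transcription, over 139618 bp. For 12 of them the closest gene was not SOCS1 but a neighbor, ENSG00000038532, and 9 of these touched that neighbor. RefSeq (GRCh38.p14) lists CLEC16A as the protein-coding gene beside SOCS1 at lower coordinates. The table does not pair the identifier with a symbol, and which gene a region acts on was not measured.

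**Figure D2:**
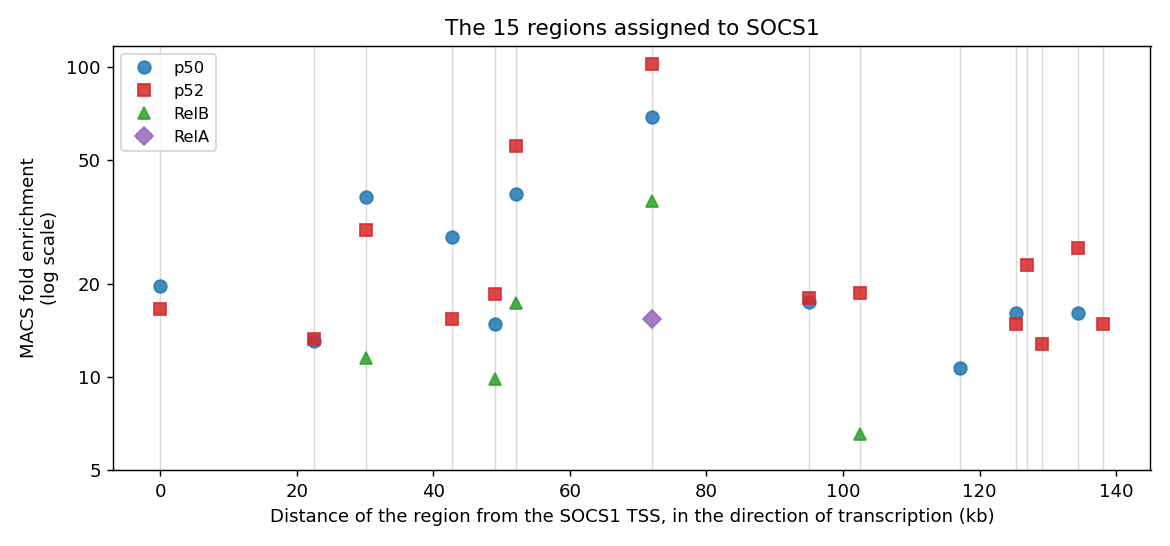
MACS fold enrichment (log axis) of the 15 regions assigned to SOCS1 against distance in kb from the SOCS1 TSS, with 1 symbol per called subunit and a grey line per region. Enrichment peaks at 72.1 kb, where all 4 subunits were called, and RelB symbols are absent at the TSS.

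The highest fold enrichment of the 26 regions, for each subunit, was 72.1 kb downstream of the SOCS1 TSS, at chr16:11180934-11185469 (hg18), a region of 4536 bp. Fold enrichment reached 101.8 with the p52 antibodies and 68.7 with that for p50, and RelB and RelA stood at 36.9 and 15.4. Among all regions called for each subunit it ranked 6 of 10893 for p52 and 27 of 10975 for p50. The RelB rank was 40 of 3984 and the RelA rank 11 of 492. It was the single member region with a RelA call. The p52 libraries had 895 merged reads in it (95% exact Poisson interval 837 to 956) and the p50 libraries 617 (569 to 668). RelB had 258 (227 to 291) and RelA 162 (138 to 189). These intervals, like all below, cover counting error only.

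The 2 signal values the table gives per subunit, 1 for each replicate, placed this region high in both replicates of p52 (percentiles 93.8 and 96.3 of the regions called for p52) and of RelB (97.3 and 99.0). For RelA they were 94.1 and 83.3. For p50 the replicates were further apart, at 90.5 and 74.2. By reads per kb, which also count the flanks of this wide region, the percentiles were lower, at 83.1 (p52), 70.5 (p50), 69.0 (RelB) and 42.1 (RelA). The summits of the 4 subunits lay within 27 bp of each other. They were 1128 to 1155 bp past the 3′ end of the neighbor ENSG00000038532, at position 11183547, which the deposited distances of 3 regions give alike.

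The second highest p52 and RelB values among the members were at chr16:11203001-11205473, 52.1 kb from the TSS, with fold enrichments of 55.7 for p52, 39.0 for p50 and 17.3 for RelB. The lowest replicate percentile over the 3 subunits was 87.2, for RelB. The region at 30.1 kb, chr16:11225449-11227484, reached 38.1 for p50, 29.9 for p52 and 11.5 for RelB. Here the p52 and RelB summits were 15 bp apart, while the p50 summit lay 758 bp from that of p52. At 49.0 kb the same 3 subunits were called at lower enrichment, 14.8 for p50, 18.6 for p52 and 9.81 for RelB. The region at 42.7 kb carried p50 at 28.3 and p52 at 15.3, with summits 3 bp apart and no RelB call at 13 reads.

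The region at the SOCS1 TSS itself, chr16:11252821-11258544, was the widest of the 26 at 5724 bp and was moderate in enrichment, at 19.6 for p50 and 16.6 for p52. The p50 summit lay 46 bp inside the gene from the TSS. The p52 summit lay 2482 bp from the TSS, which is 717 bp past the gene's 3′ end, so that the strongest peaks of both subunits in this region were 2436 bp apart. It held 502 p50 reads and 180 p52 reads. RelB and RelA were not called there, with 82 and 113 reads over the whole width.

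In the 8 regions from 95.0 to 138.1 kb, p50 ranged from 10.7 to 17.5 over the 4 regions called for it and p52 from 12.7 to 26.0 over 7. In this stretch 3 regions carried p52 alone (126.9, 129.2 and 138.1 kb), 1 carried p50 alone (117.1 kb) and 1 carried p52 with RelB and no p50 (102.4 kb, RelB at 6.55). That last pattern was rare in the table, with 1.93% of all regions. The remaining region, at 22.4 kb, had p50 at 13.1 and p52 at 13.3, and its p50 signal values stood at percentiles 18.2 and 4.77.

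SOCS3 had a region over its TSS and one 3.20 kb downstream that touched the gene, on chromosome 17 (hg18). At the TSS, chr17:73866904-73868880, p50 reached 22.7, p52 21.3 and RelB 6.33, with 196, 139 and 58 reads. The summits lay 535, 484 and 366 bp upstream of the TSS. RelB was at percentile 25.0 of its calls by fold enrichment, and its replicates gave percentiles of 13.6 and 41.3. At chr17:73863483-73864552, with summits 3771 (p50) and 3549 bp (p52) downstream of the TSS, p50 reached 12.2 and p52 15.0, and the p50 replicates were far apart, at percentiles 36.7 and 0.392.

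RefSeq (GRCh38.p14) promoter windows, 250 bases before to 50 after a transcript start, were searched on both strands for a κB-like string, GGG, any 3 bases, then TTCC. It occurred in 6.52% of all 35116 windows and in 2 of the 8 windows of these genes. The match for SOCS3 is shown because it is the one nearest a start, beginning 5 bases before it, in the second of its windows, whose start lies 1258 bases inside the gene as RefSeq draws it. The letters follow 5′ to 3′ on the gene's strand, with the matching bases in capitals.
SOCS3 site: tccccttcccGGGTCATTCCcggcagggag
The other match was in the window given for PTPN2, whose start lies 43275 bases inside that gene, far from its outermost start, so it is not shown as the promoter bound there. The looser string of GGG, any 5 bases and CC was in all 6 genes and in 58.7% of all windows. A match describes letters only, and whether a window lies inside a bound hg18 region was not determined.

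CISH carried p50 and p52 at all 3 of its regions, and neither RelB nor RelA at any. The region over its TSS, chr3:50623909-50625497 (hg18), had p50 at 26.9 with 270 reads and p52 at 28.6 with 245 reads. Both replicates of both subunits lay between percentiles 79.8 and 84.4, and the summits, 383 and 381 bp upstream of the TSS, were 2 bp apart. No other member region had p50 and p52 summits this close. At chr3:50612998-50615952, past the 3′ end of the gene by 2973 bp, p50 reached 20.5 and p52 13.1, with 355 and 163 reads. The third, chr3:50602930-50603767, was 20.4 kb from the TSS, with p50 at 15.8 and p52 at 14.1. It was assigned to CISH by the TSS alone, and its closest gene was another, ENSG00000114735.

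CISH was also the single member with a STAT-like string, TTCNNNGAA, in its RefSeq window, where 7.66% of all windows have one. The string reads the same on both strands, and it occurred at 4 places, beginning 241, 230, 129 and 112 bases before the start. The 250 bases before the start, chr3:50611775-50612024 on the minus strand (GRCh38.p14), are shown because they hold all 4, in capitals.
CISH upstream: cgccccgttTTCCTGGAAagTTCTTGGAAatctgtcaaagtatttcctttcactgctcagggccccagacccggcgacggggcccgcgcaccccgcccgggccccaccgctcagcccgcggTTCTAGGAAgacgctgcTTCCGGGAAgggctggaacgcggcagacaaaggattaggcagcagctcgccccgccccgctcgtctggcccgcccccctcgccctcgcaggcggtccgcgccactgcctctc
No κB-like string with TTCC was found in these letters, and the hg18 summits, 383 and 381 bp upstream, are further from the TSS than the 250 bases shown.

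PTPN1 had the lowest top fold enrichment of the 6 genes, 11.4, and no region where p50 and p52 were called together. Its TSS region, chr20:48559546-48561173 (hg18), carried p52 alone, at percentile 18.7 of its calls, with a summit 489 bp upstream. p50 was not called there although 130 p50 reads fell in it, next to 110 of p52. The region 21.5 kb upstream, chr20:48538195-48538782, carried p52 alone at 8.32, percentile 3.12. The region 84.6 kb downstream, chr20:48644901-48646021, carried p50 alone at 8.31, percentile 2.90, and its closest gene was another, ENSG00000042062. Both replicates of all 3 calls lay under the median of their subunit.

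PTPN2 had a single region, over its TSS at chr18:12873337-12874761 (hg18), and it had the highest p50 fold enrichment outside SOCS1. p50 reached 47.4, ranking 372 of 10975, with percentiles of 96.0 and 94.5 in the replicates. p52 reached 29.2, with replicate percentiles of 79.9 and 81.5. It held 276 p50 and 172 p52 reads, next to 33 of RelB and 30 of RelA, and the p50 and p52 summits were 32 bp apart. RelB and RelA were not called.

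PTPN6 had 2 regions on chromosome 12 (hg18), both touching the gene, while the closest TSS was that of ENSG00000215021. At chr12:6938238-6939108 p52 exceeded p50, at 37.7 against 17.5 in fold enrichment and 288 against 119 in reads. RelB was called there at 12.8, percentile 72.3, with replicates at 50.3 and 85.7, and the summits of the 3 subunits were within 46 bp. At chr12:6939949-6941786 p52 reached 13.0 and p50 8.64, percentiles 28.9 and 3.75 by fold enrichment. By pileup the percentiles were higher, 70.8 for p52 and 53.0 for p50, and the p50 replicates stood at 21.0 and 56.8. Among the regions of PTPN1, PTPN2 and PTPN6, the first of these was the only one with a RelB call.

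**Figure D3:**
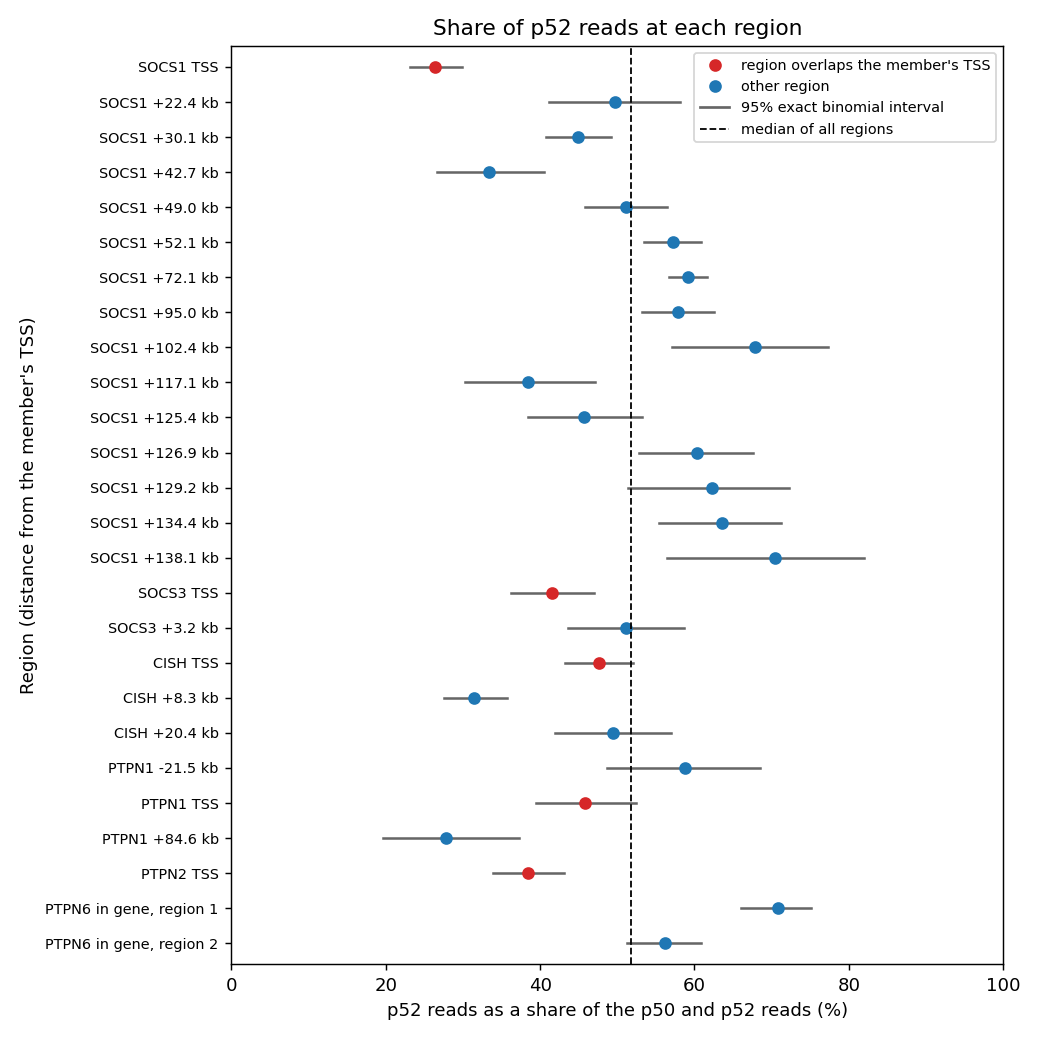
p52 reads as a share (%) of the p50 and p52 reads in each of the 26 regions, with 95% exact binomial intervals and the median of all regions as a dashed line. The SOCS1 TSS region is lowest at 26.4% and the first PTPN6 region highest at 70.8%; the 5 TSS points, in red, lie left of the line.

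The balance of p50 and p52 was compared through the share of p52 in the reads of both, with exact Clopper-Pearson intervals. Over all 26 regions p52 made up 49.5% (48.5 to 50.6%), from 4433 p52 and 4514 p50 reads. The pooled reads of the whole table gave 52.3%. The median region stood at 50.4% among the members and at 51.8% in the whole table. By gene the share was 63.2% for PTPN6 (59.9 to 66.5%), 51.1% for SOCS1 (49.8 to 52.5%), 44.9% for SOCS3 (40.5 to 49.3%), 44.4% for PTPN1 (39.8 to 49.2%), 41.0% for CISH (38.2 to 43.8%) and 38.4% for PTPN2 (33.9 to 43.1%). The intervals of PTPN6 and SOCS1 were apart from each other and from the rest. From SOCS3 down to PTPN2 the intervals of neighbors in this order overlapped.

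At SOCS1 and over the whole table, this share differed with position. The 5 regions over a member's TSS held 38.1% p52 (36.1 to 40.2%), running from 26.4% at SOCS1 to 47.6% at CISH. The 14 SOCS1 regions away from its TSS held 54.6% (53.2 to 56.0%). Regions of the other genes away from a TSS ran from 27.8% (PTPN1 at 84.6 kb) to 70.8% (the first of PTPN6), and their pooled share was not computed. All regions over a TSS in the table held 40.9% and those over 10 kb from one held 56.5%, so a difference in the same direction as at SOCS1 was present over the whole table. Within SOCS1 the share ran from 26.4% at the TSS to 70.4% at 138.1 kb, with low values also at 42.7 kb (33.3%) and 117.1 kb (38.4%). Away from a TSS, CISH at 8.26 kb (31.5%) and PTPN1 at 84.6 kb (27.8%) were low too. The intervals of 8 regions lay above the median of all regions, those of 8 below and those of 10 spanned it. Whether the p52 antibodies or the library sizes bear on the share was not tested.

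**Figure D4:**
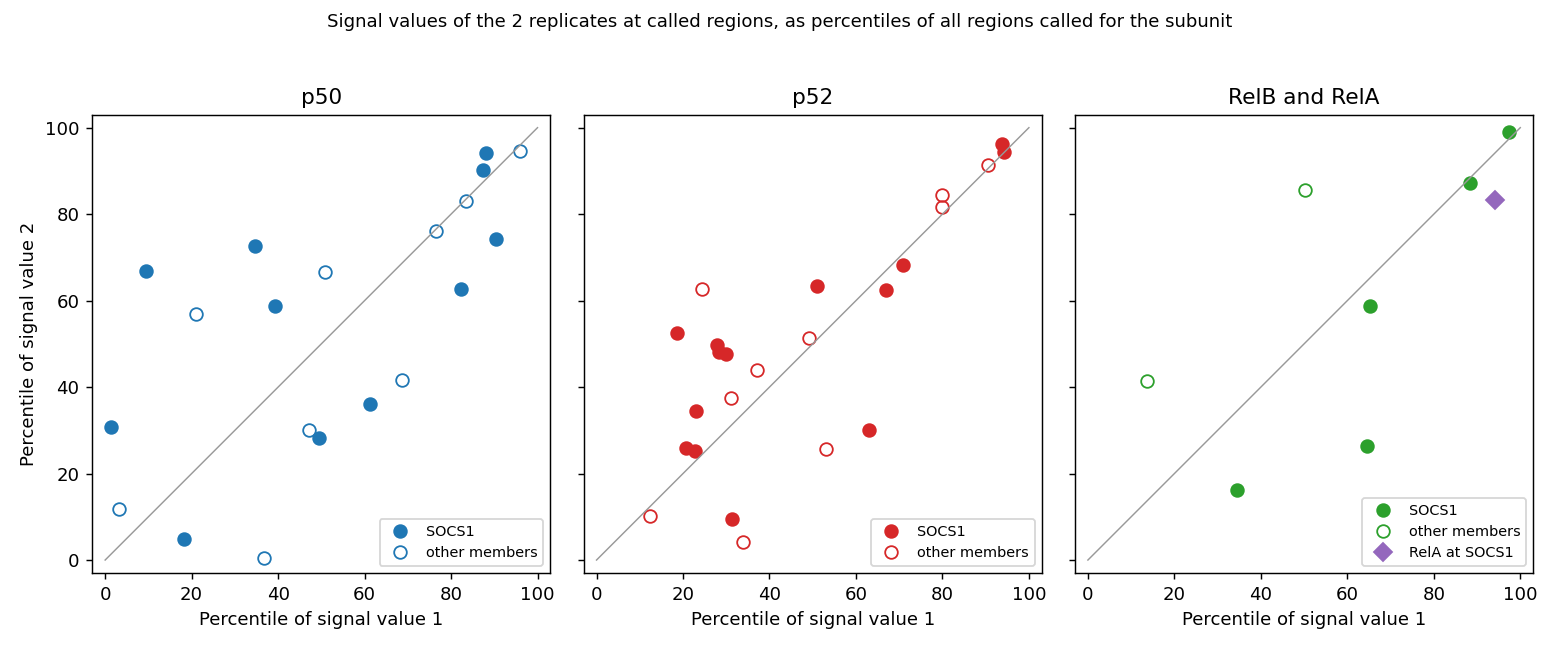
Percentile of signal value 1 against that of signal value 2 for every called region, among all regions called for the subunit, with SOCS1 filled and the other members open; the grey line marks equal percentiles. Points for p52 lie nearer to the line than those for p50, and the single RelA point is at 94.1 and 83.3.

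Replicates were set side by side through the percentiles of the signal values, whose scale the table does not name and which are not tied to a replicate number or to a p52 antibody. The median gap between the replicates was 18.4 percentile points for the p50 calls, 6.62 for p52 and 18.5 for RelB, where all regions in the table gave 13.1 for p50, 11.04 for p52 and 19.8 for RelB. Both replicates put 8 of the 20 p50 regions above the median, 6 below, and they disagreed on 6. For p52 the counts were 8, 11 and 5 of 24, and for RelB 4, 2 and 1 of 7. The same counts over all called regions were not computed, so whether such disagreement is usual is not known. The widest p50 gap, 57.4 points, was at SOCS1 134.4 kb, where the replicates stood at 9.38 and 66.8. The regions at SOCS1 30.1, 52.1 and 72.1 kb, CISH TSS and PTPN2 TSS were above the median in both replicates of both p50 and p52.

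Where p50 and p52 were called in the same region, their summits were a median of 48.5 bp apart over 18 regions, and within 60 bp in 12. Over all 7643 such regions in the table the median was smaller, 11 bp, and 4.70% were over 250 bp apart. Their share within 60 bp was not computed. The 4 member regions over 250 bp were all at SOCS1, at the TSS and at 30.1, 49.0 and 95.0 kb. A region can hold several peaks, and the table gives the summit of the most significant for each subunit.

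A missing call was not an absence of reads. Of the 19 member regions without a RelB call, 7 had as many RelB reads per kb as the lowest 5% of called regions or more, and of the 25 without RelA, 7 did so for RelA. For p50 this held for 2 of 6 and for p52 for 0 of 2. The RelB cut was 22.5 reads per kb, where the median of all regions was 20.9. For RelA the cut was 22.3 and that median 15.6. The share of all uncalled regions above these cuts was not computed, so the counts are not a trait of these genes. Reads at an uncalled region can be background.

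Of 23 further JAK-STAT genes, 12 brakes and 11 kinases or factors, 5 could be tied to an identifier and were counted. Symbols were known for only 1132 of the 8450 identifiers, those named in the study's supplementary gene tables. The other 18 genes had no such symbol and were not analysed here, so whether they have regions is not known. The 5 are thus not an even sample of the pathway. PTPRC, which encodes the CD45 phosphatase, had 6 regions, none over its TSS and the farthest 641248 bp from it. Of these, 5 had a p50 call, 5 a p52 call, 3 a RelB call and 0 a RelA call. TYK2, which encodes a JAK kinase, had 2, and 1 of these carried all 4 subunits, where p52 reached 117, RelB 38.1 and RelA 17.9. STAT5A had 3, with p50 at 32.0 over its TSS, and JAK1 had 1, called for p50, p52 and RelB.

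The genes whose summed reads in the 4 subunits were nearest to a member's were found by Euclidean distance on log2(reads + 1), over the 1132 of 8450 identifiers with a known symbol. For SOCS1 they were ITPKB (0.49, 19 regions), BHLHE40 (0.58, 17 regions) and ETS1 (0.67, 21 regions), each with more p52 than p50 reads. For PTPN6 they were AUP1 (0.34), PTPRC (0.36) and ARHGEF2 (0.42), for PTPN2 FLVCR2 (0.33), ATN1 (0.36) and HLA-E (0.37), and for CISH ANPEP (0.41), ARHGEF7 (0.45) and POU2F3 (0.46). For PTPN1 they were SIAH2 (0.37), ARID4B (0.43) and ARF3 (0.44), and for SOCS3 AC026250.16 (0.26), AC079305.6-2 (0.33) and AVL9 (0.35). The distance reflects the size of a gene's summed reads as well as their balance.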

How the data were processed

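The deposited table holds merged regions bound by any of the 4 subunits. Per the submitters' processing notes and the study's methods, the authors used CASAVA and Bowtie (hg18, unique reads) and removed duplicates with SAMtools. They sampled libraries down to a common size, which both RelB libraries were too small to reach. They then called peaks with MACS, checked replicates by IDR (irreproducible discovery rate) and merged them. Tool versions are not given in the sources used here. The deposited read count is per region and subunit. Fold enrichment (a ratio), pileup (a coverage signal), summit and FDR (a q-value), all deposited, are those of the most significant MACS peak. The authors' IDR is a fraction, and all calls had one under 0.01. The deposited signal values are a score of unnamed scale for each replicate. Whether counts came from sampled libraries is not stated.

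Computed here, in Python 3.11.15 with numpy 2.4.6, pandas 2.3.3, scipy 1.17.1 and matplotlib 3.10.9, were percentiles (the percent of regions called for a subunit at or below a value), 95% exact Poisson intervals of counts, exact Clopper-Pearson intervals of shares, summit distances and string matches, checked on simulated data. TSS positions were derived from the deposited distances. PCR reads without molecular identifiers are not independent molecules. All 6 members were named with every region, together with further JAK-STAT genes that had a region with all 4 subunits or were among the 3 with most regions, and the 3 genes nearest to each member. A gene that met this rule is not reported here. JAK1 falls outside that rule and was named after its values were seen. The members and lists were chosen with earlier results of these data known. Symbols of other genes came from the study's supplementary gene tables. Alternatives were other call thresholds, assignments, measures of strength, scaling and strings.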

Additional observations from a re-analysis of the deposited data

How the results depend on the processing

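Of 90 alternative values counted as able to differ, 49 stayed within the set limits and 41 moved. The 49 include a value that was fixed in advance, the count of regions overlapping the closest TSS among those within 10 kb of it. An IDR under 0.01 could change none of the other 7, since all calls in the table were already below it. FDR under 1e-05 and fold enrichment of at least 5 removed no member call. IDR under 0.001, chosen after seeing the data, left 19 regions (16 with p50, 19 with p52 and 5 with RelB), and this and assignment by the closest TSS alone kept every count of calls within 1.5 times. Assignment by the closest gene alone kept 12 regions (10 with p50, 12 with p52, 3 with RelB, 0 with RelA and 0 with all 4). Regions within 10 kb of the closest TSS were 8 (7, 8, 1, 0 and 0). Without the SOCS1 regions, an alternative chosen after seeing the data, 11 were left (9, 10, 2, 0 and 0), so the RelA call and the region with all 4 subunits rest on SOCS1. The median percentile was 52.8 for p50 by fold enrichment and 60.8 by signal value 2, and 50.1 for p52 against 35.4 by signal value 1 and 37.8 without SOCS1. For RelB it was 65.6, against 58.3 by pileup, 52.2 by reads per kb, 58.7 by signal value 2 and 48.7 without SOCS1. For RelA, a single region, it was 98.0, against 73.6 by pileup, 42.1 by reads per kb and 83.3 by signal value 2. The p52 share of 49.5% was 47.3% when scaled by the totals over all regions and 47.1% without SOCS1. The κB-like string matched 2 genes, and the looser one 6. The causes were not tested. No paired analysis was possible because the replicates were merged before the calls and no result comes from a test over samples. For the same reason no replicate could be left out, and the signal value of each replicate stands in.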
